A study of Mus musculus with 6 samples.

Results

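Integrins, cadherins, semaphorins with their plexin and neuropilin receptors, and ephrins with their Eph receptors were followed in the mouse myoblast line C2AS12. A gene belonged to the set if the array's annotation gave a probe set its symbol alone and that symbol fell in 1 of these families or was Ncam1. In all, 109 probe sets did so and stood for 76 genes, each represented by its probe set with the highest mean signal over the 6 arrays. The 76 were 12 integrin alpha genes, 7 integrin beta genes, 13 cadherins, 2 protocadherins, 16 semaphorins, 5 plexins, 1 neuropilin, 9 Eph receptors, 8 ephrins and 3 others (Ncam1, the integrin-binding Itgb1bp1 and the cadherin-related Cdhr5), among 8251 genes with a symbol of their own. Of the 76, 36 had a mean signal at or above 75.2, the median of all probe sets, and were tested among 6212 probe sets, and 40 were not.

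Integrins are pairs of an alpha and a beta chain that hold a cell to matrix proteins such as laminin and fibronectin. Cadherins join a cell to its neighbours and bind catenins on the inner side of the membrane. Semaphorins signal through plexins, the secreted class with neuropilins as co-receptors, and ephrins bind Eph receptors on adjoining cells. In muscle, M-cadherin, N-cadherin, Ncam1 and integrins containing the beta 1 chain are known for their roles in myoblast contact and fusion.

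Total RNA was labelled with biotin and hybridised to 6 oligonucleotide arrays, 1 for each of 3 treatments at 2 times. Adenovirus had delivered wild-type p300, which acetylates histones and serves many transcription factors as a coactivator, in the presence of doxycycline (dox in the plots), mutant p300 (mut), or wild-type p300 without doxycycline (wt). Cells were taken after 24 h in low-serum differentiation medium and at 0 h, before that medium was added, so every group carried a p300 adenovirus and no uninfected cells were on these arrays. The submitters give apoptotic death as the outcome with doxycycline and with mutant p300, and survival with wild-type p300; the labels state neither the mutation nor the action of doxycycline. No treatment had a second array at the same time, so spread could be measured only across treatments, and the effect of the medium cannot be told apart from that of time in culture.

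Every array had a trimmed mean signal of 200.1. The share of probe sets under 16.4 ran from 23.3% to 26.5%; this value, the 25th percentile of all signals, served as a floor. The 9 spike-in controls, as their log2 average minus its mean over the 6 arrays, stood at 24 h at 0.13 with doxycycline, 0.23 with mutant p300 and -0.18 with wild-type p300, and lay between -0.13 and -0.02 at 0 h. The 3' to 5' signal ratio of the actin control, a sign of RNA quality, was 1.45 with doxycycline and 1.49 with mutant p300 at 24 h, and between 1.30 and 1.34 on the other 4 arrays. The myoblast label was checked against muscle markers: Myod1 read between 419.1 and 813.0 and Des, desmin, between 264.6 and 496.3 on the 6 arrays. The summed signal of 10 myoblast and muscle markers was 2835.3 to 3742.4 at 24 h and 1904.6 to 2045.3 at 0 h. For 7 leukocyte markers the sum was 502.4 to 594.5 at 24 h and 587.9 to 692.8 at 0 h; Ptprc, Cd3e, Lyz2 and Itgam were under the floor on all arrays, while Cd14 and Cd68 were above it. For 6 endothelial, 6 epithelial and 8 neural or glial markers the sums were 283.0 to 415.5, 62.6 to 164.5 and 813.7 to 968.8 at 24 h, against 265.7 to 387.0, 88.0 to 102.4 and 1357.4 to 1575.2 at 0 h. Tubb3 gave most of the neural sum.

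**Figure D1:**
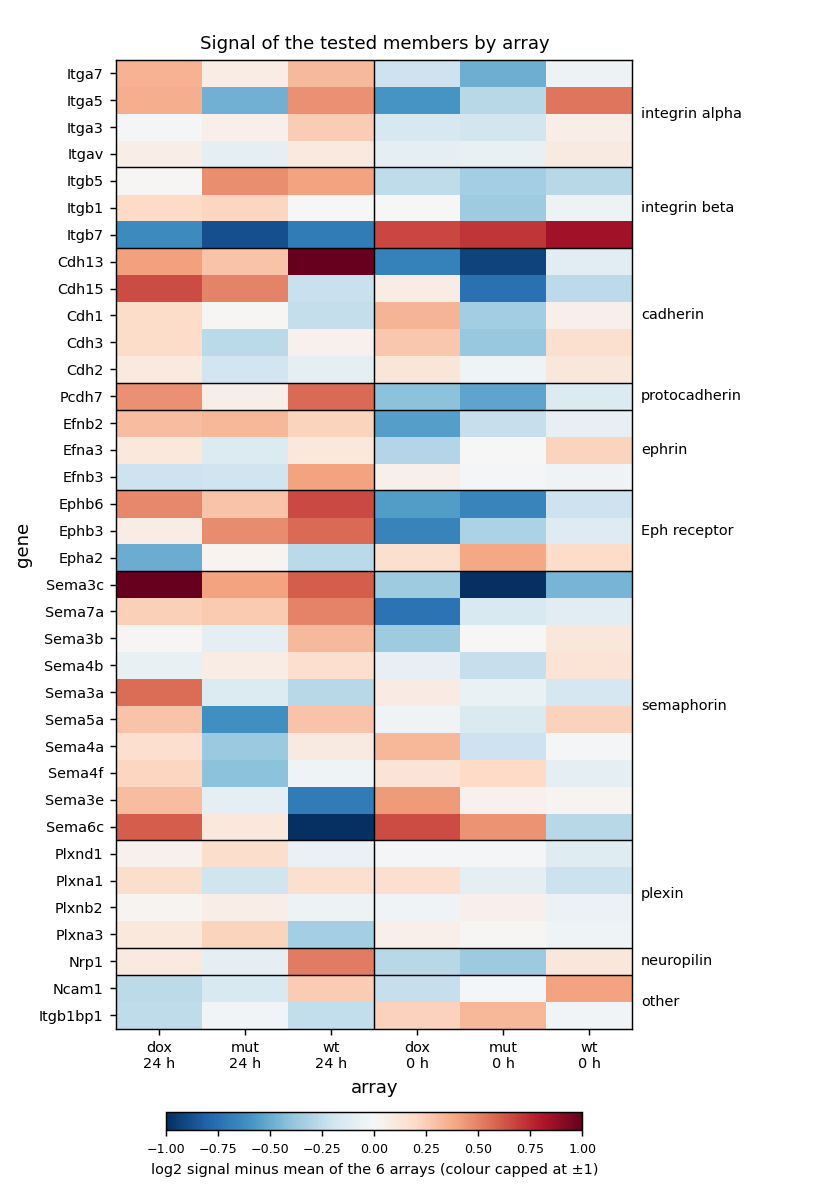
Signal of the 36 tested genes (rows, by family) on the 6 arrays (columns, 24 h left of 0 h; dox, wild-type p300 with doxycycline; mut, mutant p300; wt, wild-type p300). Colour gives the log2 signal minus the gene's mean over the 6 arrays, capped at 1 either way; Itgb7 is low at 24 h in all 3 treatments, and Cdh13, Ephb6 and Sema3c are high.

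The comparison of 24 h with 0 h asked how these genes changed in differentiation medium. In all, 10 genes rose: the semaphorins Sema3c and Sema7a, the Eph receptors Ephb3 and Ephb6, the ephrin Efnb2, the cadherins Cdh13 and Pcdh7, the integrin chains Itga7 and Itgb5, and the neuropilin Nrp1. The integrin chain Itgb7 and the Eph receptor Epha2 fell. By limma, 10 of 36 tested genes rose, against 7.24% of the 6212 probe sets tested, and 2 fell, against 9.0%, while 24 did not pass the test (Benjamini-Hochberg adjusted p under 0.05 over all 6212). At an unadjusted p under 0.05 there were 15 of 36, against 31.5%. The median change of the 36 was 0.09 on the log2 scale, and that of all probe sets tested was 0.0049. Changes of at least 2-fold were seen for 3 of the 12, Sema3c and Cdh13 upward and Itgb7 downward. The share of all probe sets that were both called and changed 2-fold was not counted, so this count has nothing to be set against. In these cultures fewer cells of a type and less RNA per cell cannot be told apart.

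The count that rose depended on the scale and on single arrays, and the count that fell on single arrays. With no filter on dim probe sets limma called 0 of the 76 genes in either direction, as over all 12422 probe sets (0). Scaled to the spike-in controls, which moved the median change of all probe sets to -0.12, 4 of the 36 rose and 2 fell. On that scale 141 of the 6212 probe sets rose and 478 fell. When the doxycycline array of 24 h was left out, 5 rose and 1 fell. Leaving out the mutant array of 24 h gave 3 and 1, the doxycycline array of 0 h 5 and 1, and the mutant array of 0 h 4 and 1. Calls over all 6212 probe sets fell to between 479 and 556 in these 4 fits, against 1009 with all arrays. Cdh13, Ephb6 and Pcdh7 were among those that rose, and Itgb7 among those that fell, in each of the 6 fits that left out 1 array. The 12 called genes kept their sign in all 13 alternatives, but most of these could not have turned it. Each of the 12 changed in 1 direction in all 3 treatments, so leaving out an array could not turn the sign. Dropping the filter, the block or the variance trend leaves the estimate unchanged. Only quantile normalization and the spike-in scaling could have turned it. With treatment as a block, leaving out either array of a treatment removes that treatment's change from the estimate. The 2 fits of a treatment therefore share 1 estimate and are not separate checks. Of the 6 fits, Nrp1 was called in 1, Epha2, Ephb3, Efnb2, Itga7 and Sema7a in 2 each, Itgb5 in 4 and Sema3c in 5.

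**Figure D2:**
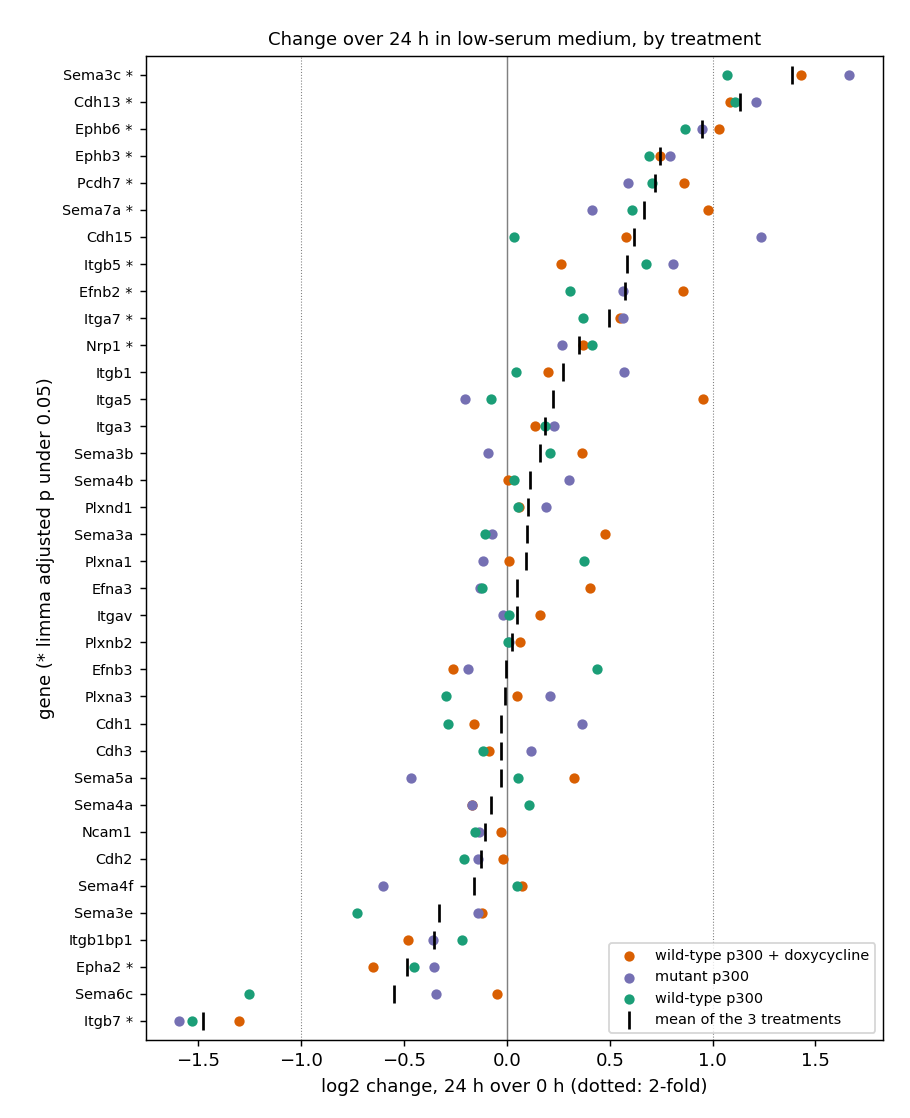
Log2 change of each tested gene (rows) between 24 h and 0 h in each treatment (coloured points: dox, mut and wt), with their mean (black bar); asterisks mark limma adjusted p under 0.05 and dotted lines 2-fold. Sema3c, at a mean of 1.39, and Itgb7, at -1.48, stand at the ends, and Cdh15 spreads from 0.04 to 1.24.

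Itgb7, the integrin beta 7 chain, pairs with the alpha 4 or alpha E chain and is best known from lymphocytes that home to the gut. It read 238.7, 201.3 and 229.1 at 24 h with doxycycline, mutant p300 and wild-type p300, against 589.6, 607.6 and 663.1 at 0 h in the same order. The 2 times did not overlap, and the treatments lay close together within each time. The log2 change was -1.48 ± 0.15 (mean over treatments; SD, n = 3; adjusted p = 7.48e-05 by limma, as for the values that follow). A second, dimmer probe set of the gene read 10.5, 6.3 and 5.9 at 24 h and 39.7, 38.7 and 27.6 at 0 h. Neither partner was tested: Itga4 read 10.7 to 24.0 and Itgae 4.2 to 21.1 over the 6 arrays, around the floor. Of the leukocyte markers, Ptprc was under the floor throughout, while Cd14 and Cd68 were above it. The sum of the 7 leukocyte markers was 594.5, 502.4 and 560.2 at 24 h, against 692.8, 587.9 and 624.2 at 0 h. It was thus lower at 24 h in each treatment, as Itgb7 was, and its part in the values of Itgb7 was not tested.

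The laminin receptor chain Itga7, which pairs with the beta 1 chain and is the main alpha chain of differentiating muscle, read 518.0, 429.5 and 510.5 at 24 h, against 353.9, 290.4 and 394.6 at 0 h (doxycycline, mutant and wild-type arrays). All 3 arrays at 24 h lay above all 3 at 0 h, with a change of 0.50 ± 0.11 (adjusted p = 0.0115), and 0.37 with adjusted p = 0.31 when scaled to the spike-in controls. A second probe set was not called, with a mean change of 0.34, and its times overlapped, since the wild-type array read 355.8 at 24 h and 399.3 at 0 h. A further probe set of Itga7 read 5.3 to 9.5 on all arrays, under the floor. Itgb1, the common beta chain, read 4266.4, 4322.7 and 3705.0 at 24 h, against 3710.5, 2914.8 and 3597.5 at 0 h. Its change of 0.27 ± 0.27 did not pass the test (adjusted p = 0.167), although Itgb1 was among the 11 genes called higher after quantile normalization.

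Itgb5 pairs with the alpha v chain as a receptor for vitronectin. Its signal was 749.6, 1028.8 and 982.0 at 24 h and 625.0, 587.8 and 614.5 at 0 h, again without overlap, and the doxycycline array changed least. It rose by 0.58 ± 0.28 (adjusted p = 0.0125), and by 0.46 with adjusted p = 0.15 when scaled to the spike-in controls. A second tested probe set of Itgb5 changed by 0.25 and was not called by limma (adjusted p = 0.239). The alpha v chain gene Itgav read 1320.7, 1189.1 and 1355.2 at 24 h, against 1182.9, 1203.0 and 1347.2 at 0 h, and was not called. Its second tested probe set had a mean change of -0.25, against 0.05 for the first. The laminin receptor chain Itga3 (mean change 0.18) and the fibronectin receptor chain Itga5 (0.22) were not called. Itga5 changed by 0.95 with doxycycline, -0.21 with mutant p300 and -0.08 with wild-type p300.

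A pair of chains that together bind laminin in epithelial hemidesmosomes lay just under the filter, and were picked out after their values were seen. Itga6, with a mean signal of 70.5, read 29.6, 33.3 and 47.8 at 24 h, against 93.8, 100.7 and 117.5 at 0 h. Itgb4, with a mean of 63.4, read 84.8, 64.3 and 115.3 at 24 h and 31.3, 15.5 and 69.3 at 0 h. Itga6 was lower at 24 h in each treatment, with no overlap between times, whereas Itgb4 was higher in each treatment and its times overlapped. When the filter was dropped, their log2 changes were -1.52 (limma adjusted p = 0.12) and 1.38 (adjusted p = 0.246) over 12422 probe sets. Krt8, Krt18 and Epcam, markers of epithelium, read 6.0 to 45.9, 19.9 to 26.9 and 2.4 to 16.3 over the 6 arrays. The sum of all 6 epithelial markers, not all named here, was 62.6, 77.2 and 164.5 at 24 h (doxycycline, mutant and wild-type arrays). At 0 h it was 102.4, 98 and 88 in the same order. The sum was highest on the wild-type array of 24 h, where Itgb4 was also highest. The part of epithelial markers in the values of Itga6 and Itgb4 was not tested.

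**Figure D3:**
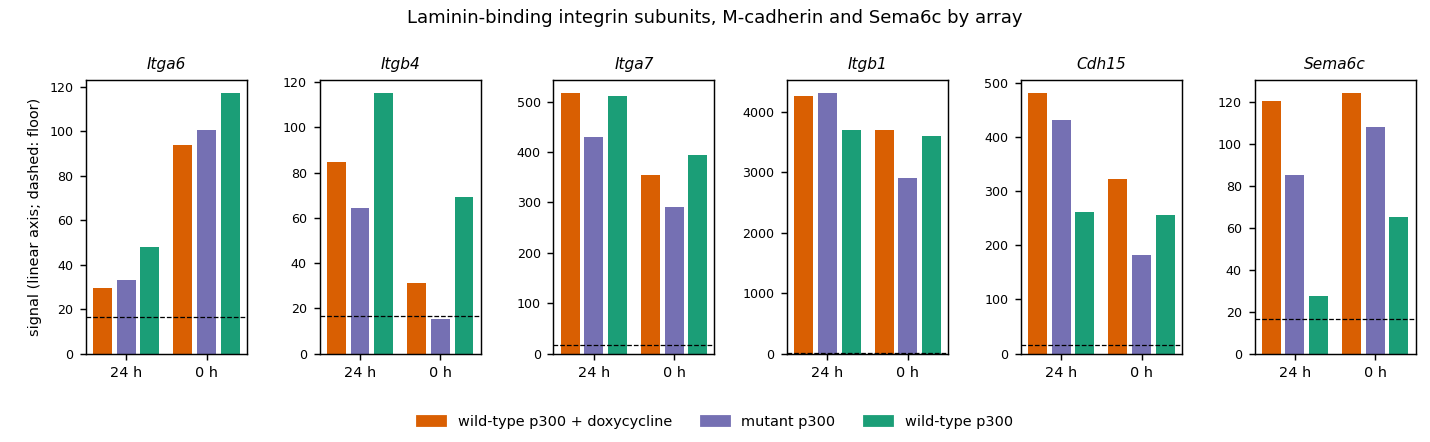
Signal (linear axis from 0) of 4 laminin-binding integrin chains, of Cdh15 and of Sema6c on each array, 24 h left of 0 h, as a bar for each treatment (dox, mut and wt); the dashed line is the floor at 16.4. Itga6 is at 29.6 to 47.8 at 24 h and 93.8 to 117.5 at 0 h, and Sema6c is at 27.3 in the wild-type array at 24 h.

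Among cadherins, Cdh13 rose. This gene encodes T-cadherin, which has no cytoplasmic tail and is held in the membrane by a lipid anchor. It read 336.6, 309.5 and 508.9 at 24 h, against 158.9, 133.8 and 236.2 at 0 h, a change of 1.13 ± 0.07 (adjusted p = 0.000335). Every array at 24 h was above every array at 0 h, and the wild-type array was the highest at each time. Pcdh7, a protocadherin, read 667.9, 508.3 and 720.9 at 24 h and 367.3, 338.2 and 442.9 at 0 h, and rose by 0.72 ± 0.14 (adjusted p = 0.00217), with no overlap between times. A dimmer second probe set of Pcdh7 read 7.5 to 20.8.

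Cdh15, or M-cadherin, the cadherin of myoblasts and satellite cells, was singled out after its values were seen. It read 481.8, 430.6 and 261.8 at 24 h, against 322.6, 182.8 and 255.5 at 0 h. It was higher at 24 h by 0.58 with doxycycline, 1.24 with mutant p300 and 0.04 with wild-type p300, and the mean of 0.62 ± 0.60 missed the threshold (adjusted p = 0.0701). Without the wild-type array of either time, which removes the wild-type change of 0.04 from the fit, it was among the genes that rose. N-cadherin, Cdh2, read 578.5, 473.6 and 503.9 at 24 h and 586.6, 522.8 and 583.1 at 0 h, and was not called (-0.12 ± 0.10, adjusted p = 0.411). E-cadherin (Cdh1) and P-cadherin (Cdh3) were not called either, with changes of -0.03 each and signs that differed between treatments. Of the other 8 cadherins, all under the filter, Cdh5, Cdh8, Cdh9 and Cdh11 were under the floor on all 6 arrays.

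The largest rise over time among the tested genes was that of Sema3c, a secreted semaphorin that signals through neuropilins and class A and D plexins. Sema3c read 158.7, 99.5 and 114.3 at 24 h, against 58.9, 31.4 and 54.5 at 0 h. The times were apart, and the change was 1.39 ± 0.30 (adjusted p = 0.00426); without the mutant array at 24 h it was 1.25 (adjusted p = 0.0517). Sema7a, a lipid-anchored semaphorin that also binds integrins with the beta 1 chain, read 139.0, 141.4 and 166.1 at 24 h and 70.6, 106.1 and 108.8 at 0 h. It rose by 0.67 ± 0.29 (adjusted p = 0.036), a call lost when scaled to the spike-in controls (0.55, adjusted p = 0.184). A dimmer second probe set of Sema7a did not show this rise, with 29.0, 34.4 and 17.6 at 24 h and 28.5, 34.7 and 18.9 at 0 h, a mean change of -0.03. The other 8 tested semaphorins did not pass. Sema3e, a ligand of plexin D1, changed by -0.12 with doxycycline, -0.14 with mutant p300 and -0.73 with wild-type p300, and Sema6c by -0.05, -0.34 and -1.25 in the same order.

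The co-receptor Nrp1, which binds secreted semaphorins and VEGF, read 702.0, 616.9 and 943.8 at 24 h, against 543.1, 511.9 and 709.1 at 0 h. Each treatment was higher at 24 h but the times overlapped, because the wild-type array at 0 h exceeded the mutant and doxycycline arrays at 24 h. It rose by 0.35 ± 0.07 (adjusted p = 0.032), and by 0.23 with adjusted p = 0.605 when scaled to the spike-in controls. A second probe set of it changed by 0.36 and was not called. Of 4 tested plexins, 0 were called by limma, against 16.2% of all probe sets, and 0 had an unadjusted p under 0.05, against 31.5%. Plxna1, Plxna3, Plxnb2 and Plxnd1 had mean changes between -0.01 and 0.10. Plxnb2 read 776.0, 796.7 and 735.4 at 24 h and 743.8, 790.3 and 733.6 at 0 h, which kept its largest change in a treatment to 0.06. Its 2 probe sets differed in sign, at 0.03 and -0.02.

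All 3 tested Eph receptors were called by limma, against 16.2% of all 6212 probe sets in either direction. Ephb6, whose kinase domain is inactive, read 882.8, 771.9 and 1003.7 at 24 h, against 431.7, 400.4 and 550.2 at 0 h. It rose by 0.95 ± 0.08 (adjusted p = 0.000319), with no overlap between times. Its second probe set, whose name marks a relaxed design, read 150.8 to 180.4 at 24 h and 171.5 to 182.0 at 0 h, a change of -0.12 that was not called, so the 2 probe sets disagreed. Ephb3, an active receptor kinase, read 115.6, 152.6 and 162.5 at 24 h and 69.1, 88.0 and 100.6 at 0 h, and rose by 0.74 ± 0.05 (adjusted p = 0.0174; 0.62 and adjusted p = 0.13 when scaled to the spike-in controls). Epha2 read 149.1, 214.2 and 174.4 at 24 h, against 234.3, 273.6 and 238.8 at 0 h, and fell by 0.49 ± 0.15 (adjusted p = 0.0323). Epha2 and Ephb3 were each called in only 2 of the 6 fits that left out 1 array, which share 1 estimate per treatment left out.

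Efnb2, a transmembrane ephrin that binds EphB receptors, read 481.4, 490.9 and 454.7 at 24 h and 266.4, 332.2 and 367.6 at 0 h. It rose by 0.57 ± 0.27 (adjusted p = 0.016), most with doxycycline (0.85) and least with wild-type p300 (0.31); when scaled to the spike-in controls its change was 0.45 (adjusted p = 0.186). Efna3, a lipid-anchored ephrin, read 528.5, 446.5 and 527.9 at 24 h, against 399.5, 488.8 and 574.1 at 0 h, and Efnb3 read 143.1, 143.9 and 219.1, against 171.5, 163.8 and 161.7. Neither was called, with mean changes of 0.05 and -0.00, and both changed in opposite directions in different treatments.

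Ncam1, an adhesion molecule of the immunoglobulin family on myoblasts, read 356.8, 385.4 and 509.2 at 24 h, against 363.6, 423.4 and 566.5 at 0 h. It was slightly lower at 24 h in each treatment and was not called (-0.11 ± 0.07, adjusted p = 0.498). Itgb1bp1, which binds the tail of the beta 1 chain, had a change of -0.35 ± 0.13 that missed the threshold (adjusted p = 0.0683).

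**Figure D4:**
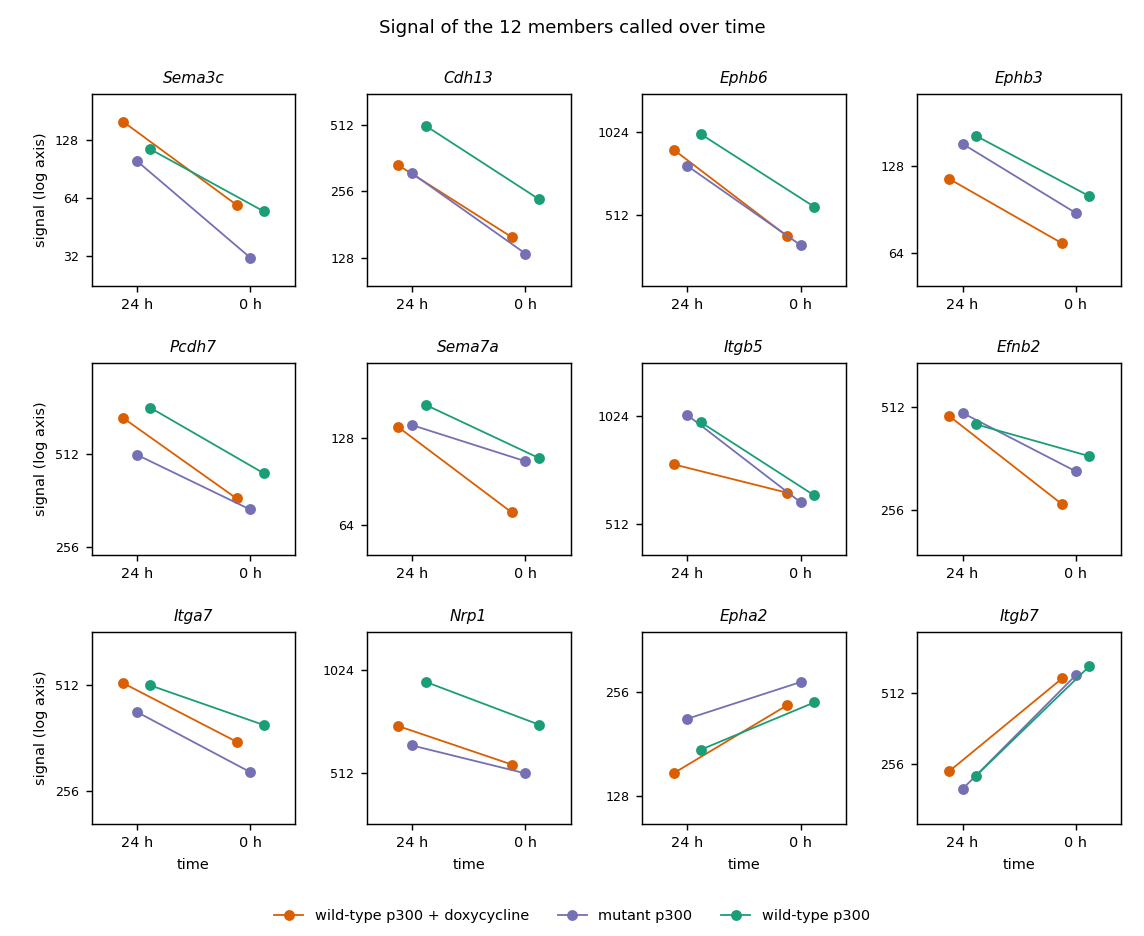
Signal on a log2-spaced axis of the 12 genes called over time, at 24 h (left of each panel) and 0 h, with a line for each treatment (dox, mut and wt). In 11 of the 12 panels the 24 h points do not overlap the 0 h points; the exception is Nrp1.

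Of the 36 tested genes, 9 had all 3 arrays at 24 h above all 3 at 0 h, against 12.7% of all probe sets tested, and 3 had all below, against 15.5%. By direction in each treatment, 16 were higher and 7 lower at 24 h in all 3, against 25.5% and 25.7%, and 13 had mixed signs. Past 2-fold upward were Cdh13, Ephb6 and Sema3c with doxycycline (3 of 36, against 1.61% of probe sets), Cdh13, Cdh15 and Sema3c with mutant p300 (3, against 1.61%) and Cdh13 and Sema3c with wild-type p300 (2, against 1.71%). Past 2-fold downward were Itgb7 with doxycycline (1, against 3.03%) and mutant p300 (1, against 3.25%), and Itgb7 and Sema6c with wild-type p300 (2, against 2.69%). Across the 36 genes, the changes with doxycycline and with mutant p300 had Pearson's r = 0.773 (Spearman's rho = 0.661), those with doxycycline and wild-type p300 r = 0.764 (0.682) and those with mutant and wild-type p300 r = 0.761 (0.629). These describe 36 genes that share arrays, not independent replicates.

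The 250 bases before the annotated start are shown for the gene that fell most, the gene that rose most and the called gene with the most E-boxes, because bHLH factors such as MyoD and myogenin bind the E-box CANNTG. Capitals mark each CANNTG, which reads alike on both strands. Sequences are from RefSeq on GRCm38.p6, 5′ to 3′ on the gene's strand: Itgb7 at chr15:102231936-102232185 (minus strand), Sema3c at chr5:17574566-17574815 (plus strand) and Itgb5 at chr16:33829415-33829664 (plus strand).
Itgb7: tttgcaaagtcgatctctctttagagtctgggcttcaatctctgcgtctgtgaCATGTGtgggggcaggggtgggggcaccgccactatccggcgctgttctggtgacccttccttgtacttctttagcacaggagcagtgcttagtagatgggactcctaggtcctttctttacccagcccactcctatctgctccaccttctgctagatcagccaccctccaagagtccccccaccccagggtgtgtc
Sema3c: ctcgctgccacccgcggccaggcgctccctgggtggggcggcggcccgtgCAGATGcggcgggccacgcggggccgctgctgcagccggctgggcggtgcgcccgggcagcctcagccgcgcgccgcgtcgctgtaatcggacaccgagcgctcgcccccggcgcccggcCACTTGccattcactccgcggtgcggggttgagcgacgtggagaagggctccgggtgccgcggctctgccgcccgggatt
Itgb5: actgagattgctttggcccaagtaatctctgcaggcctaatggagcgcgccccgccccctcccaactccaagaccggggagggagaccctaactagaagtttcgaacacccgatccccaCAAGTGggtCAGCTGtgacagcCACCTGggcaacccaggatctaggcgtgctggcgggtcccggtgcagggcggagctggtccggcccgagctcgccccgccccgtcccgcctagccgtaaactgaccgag
Of the 12 called genes, 10 had a promoter in the RefSeq table. Over these 250 bases, CANNTG occurred in 6 of 8 genes that rose and in 1 of 2 that fell, against 66.2% of 32851 promoters of the mouse genome. Among the 27 tested genes with a promoter, the called ones included, it occurred in 15 (55.6%). The genome figure counts every promoter entry, whereas the tested genes were counted with 1 promoter each. The form CAGCTG, which is a subset of CANNTG, occurred in 3 of the 8 (Itgb5, Ephb3 and Sema7a) and in 0 of the 2. It occurred in 13.0% of all promoters and in 4 of the 27 tested genes (14.8%). A match of letters describes the sequence and is not a binding site.

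The next comparison set the doxycycline and mutant arrays against the wild-type array, and asked which adhesion and guidance genes went with death or survival. None of the 36 tested genes was called by limma, while Sema6c, a transmembrane semaphorin, stood at least 2-fold higher in both the doxycycline and the mutant array at 24 h. Cdh13, Nrp1 and Ncam1 were lower in both arrays at both times, below the threshold of the test. With both times together, 0 of 36 were called, against 0.0322% of probe sets higher, 0.499% lower and 0.531% in either direction; at an unadjusted p under 0.05 there were 8 of 36, against 13.7%. At 24 h, 0 were called, against 0.0483% higher, 0.724% lower and 0.773% in either direction, and 8 had an unadjusted p under 0.05, against 11.5%. At 0 h 0 were called, as over all probe sets (0%), and 5 had an unadjusted p under 0.05, against 4.22%. The wild-type side of each time is 1 array, assumed to vary like the others.

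Sema6c read 120.4 with doxycycline, 85.1 with mutant p300 and 27.3 with wild-type p300 at 24 h, and 124.4, 108.0 and 65.1 at 0 h. The wild-type array was the lowest at each time. At 24 h the doxycycline and mutant arrays were 4.41-fold and 3.12-fold above it, and among the 36 genes no other passed 2-fold in both arrays, against 0.386% of all probe sets; 0 were 2-fold lower in both, against 1.30%. At 0 h, 0 were 2-fold higher (0.177%) and 0 lower (0.338%). The log2 difference at 24 h was 1.89 (95% interval 1.01 to 2.77; limma adjusted p = 0.0785), that at 0 h was 0.83 (-0.05 to 1.71) and that over both times was 1.36 (0.68 to 2.04; adjusted p = 0.0992). Scaled to the spike-in controls, Sema6c was called over both times (1.20, adjusted p = 0.0184). That scale called 10 of the 6212 probe sets higher and 227 lower, against 2 and 31 on the deposited scale. At 24 h it was called when any 1 doxycycline or mutant array was left out, in fits that also called 161 to 351 of the 6212 probe sets, against 48 with all arrays. It was not called without the wild-type array of 0 h. Its probe set carries a name that marks a relaxed design, and no other probe set of the gene was on the array.

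Sema3e, with 540.1, 407.6 and 268.2 at 24 h and 588.0, 448.9 and 444.2 at 0 h, was higher by 0.81 at 24 h (0.26 to 1.35; adjusted p = 0.233). Its receptor gene Plxnd1 read 295.1, 322.4 and 273.0 at 24 h and 283.6, 282.3 and 262.9 at 0 h, with a difference of 0.14 over both times. Plxna3 had a difference of 0.50 at 24 h (0.07 to 0.94; adjusted p = 0.358) and 0.29 over both times. Cdh15 differed by 0.80 at 24 h (0.10 to 1.5; adjusted p = 0.361) and by -0.07 at 0 h.

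Cdh13 had a difference of -0.68 over both times (-0.99 to -0.37; adjusted p = 0.0767), with -0.66 at 24 h and -0.70 at 0 h. Nrp1 differed by -0.47 (-0.73 to -0.22; adjusted p = 0.112), Ncam1 by -0.49 (-0.77 to -0.22; adjusted p = 0.125), Pcdh7 by -0.32 (adjusted p = 0.345) and Ephb6 by -0.34 (adjusted p = 0.239). On these probe sets both arrays lay below the wild-type array at both times. The second tested probe set of Ephb6 went the other way, at 0.07, with 180.4 and 164.3 against 150.8 at 24 h, and a dimmer one of Ncam1 read 54.7, 73.9 and 60.8 at 24 h, with the mutant array highest. Scaled to the spike-in controls, which moved the median difference of all probe sets to -0.32 at 24 h and -0.13 over both times, Cdh13 and Nrp1 were called over both times. On that scale 227 of the 6212 probe sets were called lower over both times, against 31 on the deposited scale. Itga5 read 124.4, 69.3 and 133.0 at 24 h, against 64.2, 79.9 and 140.5 at 0 h, a difference of -0.75 over both times (-1.37 to -0.13; adjusted p = 0.281). Efnb3 was lower by 0.61 at 24 h, without passing the test (adjusted p = 0.346), and the sign turned at 0 h, with 0.05.

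**Figure D5:**
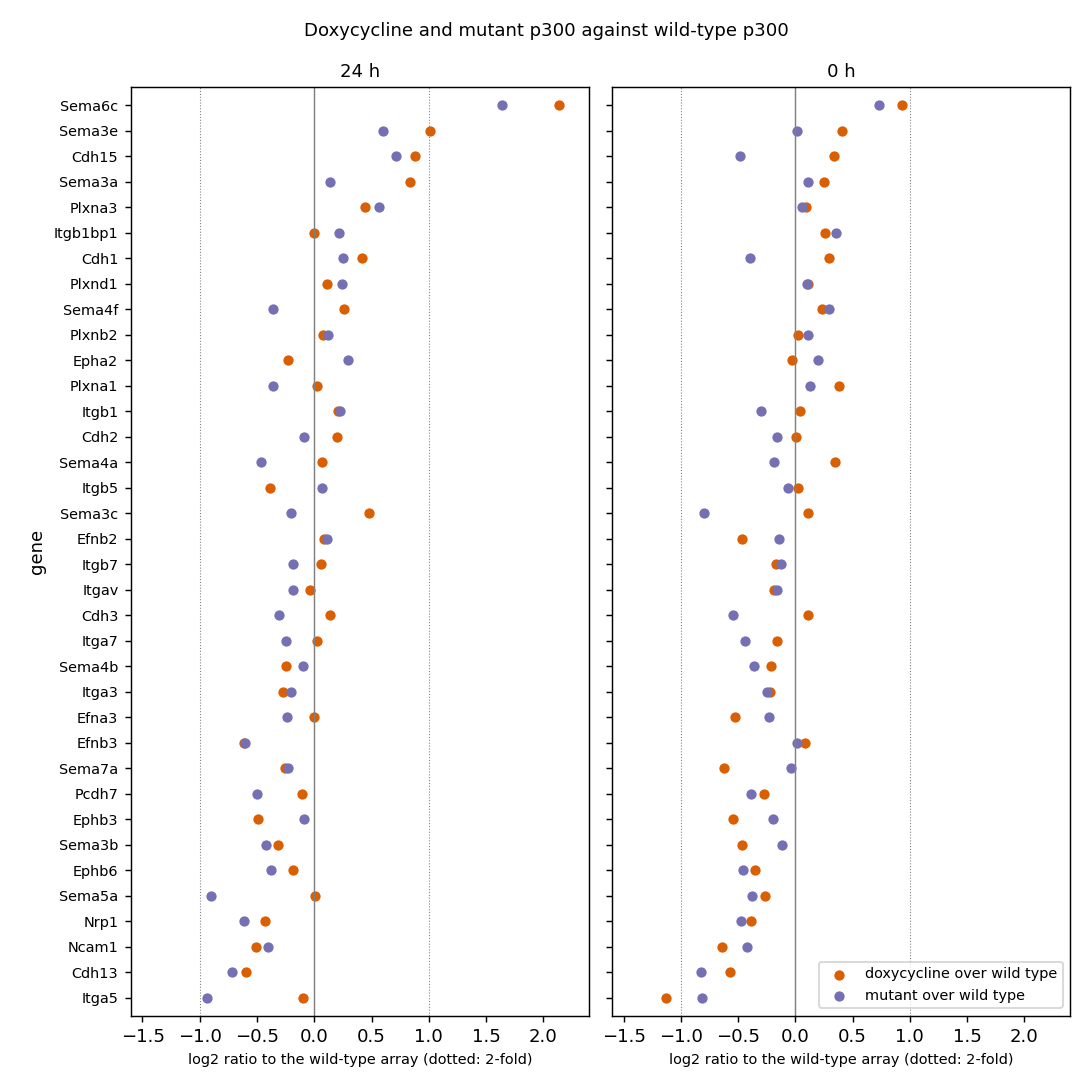
Log2 ratio of the doxycycline array (orange) and of the mutant array (purple) to the wild-type array for the 36 tested genes (rows, by the mean difference over both times), at 24 h (left) and 0 h (right); dotted lines mark 2-fold. Both points of Sema6c lie beyond 2-fold at 24 h, and both points of Cdh13, Nrp1 and Ncam1 lie below 0 at both times.

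Both arrays lay above the wild-type array at both times for 6 of the 36 genes (Plxna3, Plxnb2, Plxnd1, Sema3a, Sema3e and Sema6c), against 20.4% of all probe sets, and below it for 12, against 14.6%. Those 12 were Itga3, Itga5, Itgav, Cdh13, Pcdh7, Ephb3, Ephb6, Nrp1, Ncam1, Sema3b, Sema4b and Sema7a. The median difference of the 36 was -0.11 over both times, against 0.03 over all probe sets. The doxycycline and mutant arrays share the wild-type array in these ratios. The spike-in and actin values of the doxycycline and mutant arrays at 24 h also differed from those of the wild-type array, and their part in these differences was not tested.

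Whether the change over 24 h differed between the outcomes was tested as an interaction. By limma 0 of 36 genes were called, as over all probe sets (0%), and 0 had an unadjusted p under 0.05, against 3.17%. The largest estimates were 1.06 for Sema6c (-0.19 to 2.31), 0.87 for Cdh15 (-0.12 to 1.87) and -0.66 for Efnb3 (-1.40 to 0.08), so the intervals left room for changes that differ by more than 2-fold. Between the dying treatments, 0 of the 36 genes were at least 2-fold apart in the mutant array from the doxycycline array at 24 h, against 0.934% of probe sets above and 1.34% below. At 0 h it was again 0 of 36, against 0.467% above and 0.531% below.

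Of the 40 genes under the filter, 9 were under the floor on all 6 arrays: Cdh5, Cdh8, Cdh9, Cdh11, Itga8, Itgam, Pcdh12, Sema3f and Sema6b. Over the 40, single values ran from 0.7 to 117.5. Of the 40, 4 stood at least 2-fold from the wild-type array in both the doxycycline and the mutant array at 24 h or at 0 h. The share among all probe sets under the filter was not counted, so this count has nothing to be set against. Sema4d, a ligand of plexin B receptors, read 12.6 and 9.6 with doxycycline and mutant p300 and 50.7 with wild-type p300 at 24 h, and 12.8, 9.6 and 25.6 at 0 h. It was above the floor with wild-type p300 and under it in the other 4 arrays. The leukocyte integrin chain Itgb2 read 18.9, 3.7 and 41.1 at 24 h, against 26.9, 19.7 and 33.5 at 0 h. Efna1, a ligand of EphA receptors, went the other way, with 32.0, 25.7 and 12.7 at 24 h and 38.1, 38.2 and 13.1 at 0 h. Efnb1, at least 2-fold apart between the mutant and doxycycline arrays at 24 h, read 27.8 with doxycycline, 70.6 with mutant p300 and 61.2 with wild-type p300 at 24 h, and Itgb4, given above, was 2-fold lower in both arrays at 0 h.

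Genes that act with these receptors were read from fixed lists. Of 20 tested matrix ligands of integrins, 4 rose over time and 0 fell, against 7.24% and 9.0% of all probe sets tested. They were Tnc, tenascin C, by 1.21 ± 0.07 (adjusted p = 0.000387), Nid2, which links laminin to collagen IV, by 1.20 ± 0.36 (0.000841), Thbs2 by 0.38 ± 0.13 and Col4a2 by 0.34 ± 0.04. In the same list 3 of 20 genes were called lower in the doxycycline and mutant arrays over both times, against 0.499% of all probe sets. In the other lists 0 were called over both times. At 24 h, at 0 h and in the interaction 0 were called in any list, against 0.773%, 0% and 0% of all probe sets. The laminin chain gene Lama4 read 83.4, 54.4 and 237.8 at 24 h and 54.4, 54.3 and 137.9 at 0 h, a difference of -1.58 (adjusted p = 0.0383). Col4a2 read 497.7, 506.6 and 817.9 at 24 h, against 382.3, 412.9 and 647.8 at 0 h (-0.70, adjusted p = 0.0353), and Tnc read 186.3, 274.0 and 557.6, against 82.4, 122.6 and 226.9 (-1.24, adjusted p = 0.0456). All 3 calls were lost without the variance trend, without the filter, and without the doxycycline array of 0 h or the wild-type array of either time, with the sign kept in each; without the variance trend the adjusted p was 0.111 for Col4a2, 0.0765 for Lama4 and 0.116 for Tnc. The call of Col4a2 was also lost without the mutant array of either time, that of Lama4 without the one of 0 h, and that of Tnc without the one of 24 h and after quantile normalization. These alternatives were run on the lists after the results had been seen.

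The shares of all probe sets, 7.24% that rose and 9.0% that fell, stand beside each count that follows. Of 7 tested guidance genes of other families, 3 rose and 0 fell: the netrin receptor Unc5c by 0.65 ± 0.15 (adjusted p = 0.00668) and the chemokine receptors Cxcr4 by 0.69 ± 0.33 (0.0198) and Ackr3 by 0.67 ± 0.08 (0.00588). Of 20 tested guidance effectors, 1 rose, Cfl2, the muscle cofilin, by 0.58 ± 0.15, and 1 fell, the GTPase gene Rhoa, at -0.34 ± 0.11. Among 17 tested genes of other adhesion molecules and fusion, 5 rose and 0 fell: Sdc2, a syndecan, by 1.24 ± 0.40, Sgca by 0.78 ± 0.35, the tetraspanin Cd82 by 0.62 ± 0.19, Dag1, dystroglycan, by 0.59 ± 0.25 and Cadm1 by 0.59 ± 0.03. Of 17 integrin adaptors and kinases only Arhgef7 was called, at 0.48 ± 0.26, and of 9 catenins and partners only Ctnnd1, the p120 catenin gene, at 0.36 ± 0.18. The limma adjusted p was 0.043 for each of Arhgef7 and Ctnnd1, and 0.038 for Rhoa. These 3 calls were lost when any 1 doxycycline or mutant array was left out, and when scaled to the spike-in controls. They were also lost without the treatment block, the variance trend or the filter. The median changes of these lists ran from 0.05 for guidance effectors to 0.60 for the other guidance families, against 0.0049 over all probe sets. When single arrays were left out, 2 to 6 matrix ligands rose, 1 to 3 genes of the other guidance families and 3 to 5 of the other adhesion and fusion genes. Scaled to the spike-in controls, 2, 0 and 1 rose, and 141 of the 6212 probe sets did. With no filter limma called 0 in each, as over all 12422 probe sets (0).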

How the data were processed

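Per the labels' protocols, total RNA of 6 samples was biotin-labelled and hybridised to Affymetrix arrays. The values deposited by the authors are array signals in linear intensity; per the submitters' processing notes MAS5 was used, in a version not given in the sources used here. Precision is limited by having 6 arrays. Of 12488 probe sets, 66 controls were left out; of the other 12422, 10833 had 1 symbol, 396 several and 1193 none. Values below the floor of 16.4 were raised to 16.4 before taking log2. Probe sets with a mean signal at or above 75.2 were tested with limma 3.58.1 in R 4.3.3 (lmFit, eBayes with a variance trend, 2-sided, Benjamini-Hochberg adjustment over 6212).

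The time effect had treatment as a block (2 residual degrees of freedom). The outcome effect over both times had time as a term (3) and took the arrays of a treatment as independent; the effects at 24 h and 0 h and the interaction came from 1 mean per outcome and time (2). The labels name no separate cultures: the spread behind each p-value is that among these 6 samples and may be technical. Comparisons of at least 2-fold used no test. Genes with values were those called, the 1 of each family with the highest signal, the largest time change or the largest outcome difference, those 2-fold apart, and those whose probe sets disagreed in sign; further ones are marked in the text. The members, lists and tests were chosen with earlier results of these data known. All 76 symbols matched GRCm38.p6, used for names. The fits were tested on simulated data. Promoters were searched with Python 3.11.15 and pandas 2.3.3; figures used matplotlib 3.10.9.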

Additional observations from a re-analysis of the deposited data

How the results depend on the processing

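With no filter on mean signal, limma called 0 members higher and 0 lower over time, as over all 12422 probe sets (0). It called Sema4d and Efna5, both near the floor, lower than wild type at 24 h (2) and in time change (2), and Sema4d at 0 h (1). In both genes every doxycycline and mutant value lay under the floor and was raised to it. The fit therefore had no spread for these genes, and their calls carry no weight. Scaled to the spike-in controls, 4 members rose over time. By outcome, 1 was higher and 2 lower over both times, and 1 was higher and 4 lower at 24 h. On the same scale 1 stood 2-fold lower in the mutant than in the doxycycline array. Of all 6212 probe sets, it called 141 higher and 478 lower over time, 10 and 227 over both times, and 6 and 420 at 24 h. Without the treatment block 6 rose and 1 fell, and without the variance trend 1 fell. With plain probe sets only, 0 were 2-fold higher at 24 h, since Sema6c drops out. Leaving out single arrays gave 3 to 11 that rose and 1 to 3 that fell, and 0 to 2 higher at 24 h: Sema6c in each fit without a doxycycline or mutant array, and also Sema3e without the mutant array at 24 h. The difference of Efnb3 over both times ran from -0.6105 to 0.05175 when single arrays were left out, the sign turning without the wild-type array at 24 h, and the time change of Plxnd1 turned to -0.02048 when scaled to the spike-in controls; the cause was not tested. Of 311 recomputed values of 25 named results, 244 kept sign and call, 55 lost the call, 10 gained one and 2 changed sign. Effects at 24 h or 0 h could not be fitted without the wild-type array of that time, nor the interaction without either. Over time the arrays of a treatment were paired by the treatment block; the labels carry no replicate numbers to pair on.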
